A study of Arabidopsis thaliana with 48 samples.

Results

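The transcripts of 10 genes of the cell cycle and of cytokinesis were followed across 48 RNA sequencing libraries of Arabidopsis thaliana shoots and roots, as markers of growth. They were taken by locus as the rows of CYCB1;1 (AT4G37490), CYCB1;2 (AT5G06150), CYCD3;1 (AT4G34160), CDKB1;1 (AT3G54180), CDKB1;2 (AT2G38620), CDKB2;1 (AT1G76540), CDKB2;2 (AT1G20930), PCNA1 (AT1G07370), KNOLLE (AT1G08560) and AUR1 (AT4G32830), 10 of 32678 gene identifiers in the deposited count tables. All 10 had more than 100 counts in total and were among the 21098 genes tested, and none was at 0 counts in any library. The question of the study that bears on them is whether a root microbiota shifts plants from defence towards growth when light is low, and whether this needs MYC2, a transcription factor of jasmonate responses.

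The plants were 5 weeks old and grew in FlowPots, a gnotobiotic system on peat. The first genotype, MYC2-FLAG, is the jin1-8 mutant that carries MYC2–FLAG under the MYC2 promoter (jin1-8 pMYC2::MYC2–FLAG). The second, myc2-3, is an insertion mutant of MYC2 without a transgene. The study writes the mutant as myc2-3/jin1-8, so both names stand for 1 mutant, and it calls MYC2-FLAG the complemented line. Both genotypes therefore carry a mutant MYC2 locus, and each is 1 line. Each was grown under normal light (NC) or under low photosynthetically active radiation (LP, called shade in the labels), and with (+BFO) or without (-BFO) a synthetic community of bacteria, fungi and oomycetes. Shoots and roots were sampled apart, which gave 16 conditions of 3 libraries each.

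Between 5162823 and 11045467 reads were counted on genes per library. MYC2 was between 54.3 and 409.9 CPM (reads of a gene relative to the size of its library) in the MYC2-FLAG libraries and between 5.48 and 41.0 CPM in those of myc2-3, and was lower in myc2-3 in all 8 comparisons of the genotypes, with log2 fold changes from -4.92 to -2.16. The shoot markers RBCS1A, LHCB1.1, RCA and GAPA summed to at least 24200 CPM in shoots and at most 237.4 CPM in roots. The root markers PYK10, CASP1, EXPA7 and SHR summed to between 1698 and 6345 CPM in roots and between 133.9 and 712.5 CPM in shoots, where PYK10 was at 128.4 to 701.1 CPM, SHR at 2.35 to 13.2 CPM, CASP1 at most at 0.54 CPM and EXPA7 at 0. The 2 genotypes were sequenced as separate projects, so that project and genotype cannot be told apart, and the study's methods report that in many myc2-3 samples a large share of the reads came from a latent virus, with no significant effect on the plant transcriptome in the authors' assessment. The labels of light and BFO did not line up between the genotypes over all genes. When condition means were centred within tissue and genotype, root conditions with the same label correlated between the genotypes at r from -0.76 to -0.50 over 21098 genes. With the opposite BFO label in the same light, r was between 0.58 and 0.77. In shoots, the same-label r was -0.33 for NC -BFO, 0.59 for NC +BFO, 0.70 for LP -BFO and -0.67 for LP +BFO. There the mismatch also crossed the light label. Shoots of myc2-3 under NC -BFO had their highest r, 0.82, with MYC2-FLAG shoots under LP +BFO. Those of myc2-3 under LP +BFO had theirs, 0.64, with MYC2-FLAG shoots under NC +BFO. Within MYC2-FLAG, MYC2 itself was at 252.6, 59.2 and 409.9 CPM in LP +BFO shoots and at 54.3, 56.7 and 54.7 CPM in LP -BFO shoots (log2 fold change 2.12 ± 0.34), and its changes with BFO were 0.14 ± 0.33 in NC shoots, -0.51 ± 0.32 in LP roots and -0.04 ± 0.32 in NC roots. Conditions are kept here as labelled. Every difference between the genotypes, and the directions of BFO and of light within 1 genotype, rest on these labels. Means over all 4 conditions of a tissue, which do not depend on how labels were given within a genotype, and root means over BFO within a light, which depend on the light label alone, are given beside the genotype comparisons. The study's methods describe the libraries as biological replicates of an RNA-seq experiment done a single time, and the labels do not say whether the 3 libraries of a condition came from separate plants or pots, so the p-values measure the spread between these libraries.

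Plant cells divide under the control of cyclins, which rise and fall through the cycle, and of cyclin-dependent kinases (CDKs), which they activate. D-type cyclins drive entry into the cycle, PCNA clamps DNA polymerase to the template during DNA synthesis, B-type cyclins and the plant-specific B-type CDKs act from G2 to mitosis, and Aurora kinases act on the spindle and chromosomes. A plant cell then builds a new wall from the inside, at the cell plate, and KNOLLE is the syntaxin that fuses vesicles there. In a mature rosette or root system most cells no longer divide, so transcripts of these genes come largely from meristems and young organs.

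Genes expressed in G2 and mitosis often carry the mitosis-specific activator (MSA) element, which MYB3R factors bind and whose core is AACGG, while genes of DNA synthesis often carry E2F sites. Promoters were read as the 250 bases before the annotated start, from the RefSeq genome and annotation of TAIR10.1. The files themselves name loci only. The 3 promoters below belong to the B-type cyclins and KNOLLE, the genes called lower under LP in myc2-3 roots, and capitals mark the MSA core on either strand. They lie at chr4:17624309-17624558 on the minus strand for CYCB1;1, at chr5:1861704-1861953 on the minus strand for CYCB1;2 and at chr1:2711001-2711250 on the minus strand for KNOLLE, and none overlaps an exon of another gene.
CYCB1;1: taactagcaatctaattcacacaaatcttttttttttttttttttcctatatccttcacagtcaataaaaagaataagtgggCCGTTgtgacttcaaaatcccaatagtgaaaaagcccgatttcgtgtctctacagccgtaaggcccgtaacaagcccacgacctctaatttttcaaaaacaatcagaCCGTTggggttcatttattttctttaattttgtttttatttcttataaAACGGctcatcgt
CYCB1;2: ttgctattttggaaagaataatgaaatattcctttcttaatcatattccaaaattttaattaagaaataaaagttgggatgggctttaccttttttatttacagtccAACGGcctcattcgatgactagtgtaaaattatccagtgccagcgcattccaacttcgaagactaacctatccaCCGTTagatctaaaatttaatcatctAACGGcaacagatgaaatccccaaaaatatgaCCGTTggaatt
KNOLLE: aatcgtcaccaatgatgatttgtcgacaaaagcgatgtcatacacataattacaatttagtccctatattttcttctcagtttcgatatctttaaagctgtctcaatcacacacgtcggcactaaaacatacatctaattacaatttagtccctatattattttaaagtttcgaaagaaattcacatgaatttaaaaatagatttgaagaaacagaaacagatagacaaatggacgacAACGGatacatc

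The CYCB1;1 promoter held 3 copies of AACGG or its reverse complement, the first starting 168 bases before the gene and the last 13. CYCB1;2 held 4, from 143 to 11 bases before its start, and KNOLLE held 1, 12 bases before its start. CDKB2;2, AUR1 and CYCD3;1 held 1 each, and the CYCD3;1 window lies wholly within exons of another gene. CDKB1;1, CDKB1;2, CDKB2;1 and PCNA1 held none in this window. Exons of other genes covered 163 bases of the CDKB1;1 window, 144 of the CDKB2;1 window and 137 of the PCNA1 window. The CDKB1;2 window overlapped no such exon. In the overlapped windows, the absence of this core and of the motifs below is thus read partly from exons of other genes. The core was thus present in 6 of 10 promoters, beside 40 of 104 promoters of other division genes (38.5%) and 4413 of 20460 promoters of all tested protein-coding genes (21.6%). The E2F site was searched on both strands as TTTCCCGC, TTTCCCGG, TTTCGCGC, TTTCGCGG, TTTGCCGC, TTTGCCGG, TTTGGCGC and TTTGGCGG, none of which contains AACGG or its reverse complement. It was in 0 of 10 promoters, in 17.3% of those of the other division genes and in 2.97% of all. The G-box CACGTG, the core of sites that MYC2 binds, was also in 0 of 10, beside 7.22% of all promoters, and this motif was added after the data were seen.

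KNOLLE was the most abundant of the 10 per length in both tissues, with a mean level of 13.1 CPM per kilobase of exon over the shoot libraries and 25.3 over the root libraries. CDKB1;2 was the lowest in both, at 1.28 in shoots and 3.60 in roots. On the same scale CYCD3;1 was at 8.88 in shoots and 14.7 in roots, CDKB2;1 at 5.96 and 17.3, and PCNA1 at 5.06 and 11.1. The lowest single value was 0.34 CPM, 2 reads of CYCB1;1, in shoots of myc2-3 under NC +BFO, so that fold changes of the CYCB1;1, CDKB1;1 and CDKB1;2 transcripts in shoots rest on few reads. In the same condition CDKB2;2 had 15, 2 and 14 reads and AUR1 had 8, 14 and 20, so comparisons of these genes with it have the same limit.

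All 10 genes had higher mean levels in roots than in shoots. A call below is a log2 fold change of at least 1 in either direction with a Benjamini–Hochberg adjusted p under 0.05 over all genes, from edgeR's quasi-likelihood test. Shoots against roots, averaged over the 4 conditions of a genotype, 8 of 10 genes were lower in MYC2-FLAG and 9 of 10 in myc2-3, beside 24.4% and 25.3% of all genes tested. CDKB1;1 differed the most, with a log2 fold change of -1.78 ± 0.13 (SE) in MYC2-FLAG and -2.02 ± 0.14 in myc2-3. CYCD3;1 stayed above -1 in both, at -0.92 and -0.78, and KNOLLE in MYC2-FLAG, at -0.95. The median of all genes was itself -0.14 and -0.13. In bulk tissue, fewer dividing cells and less RNA per dividing cell cannot be told apart, here and in all comparisons that follow.

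**Figure D1:**
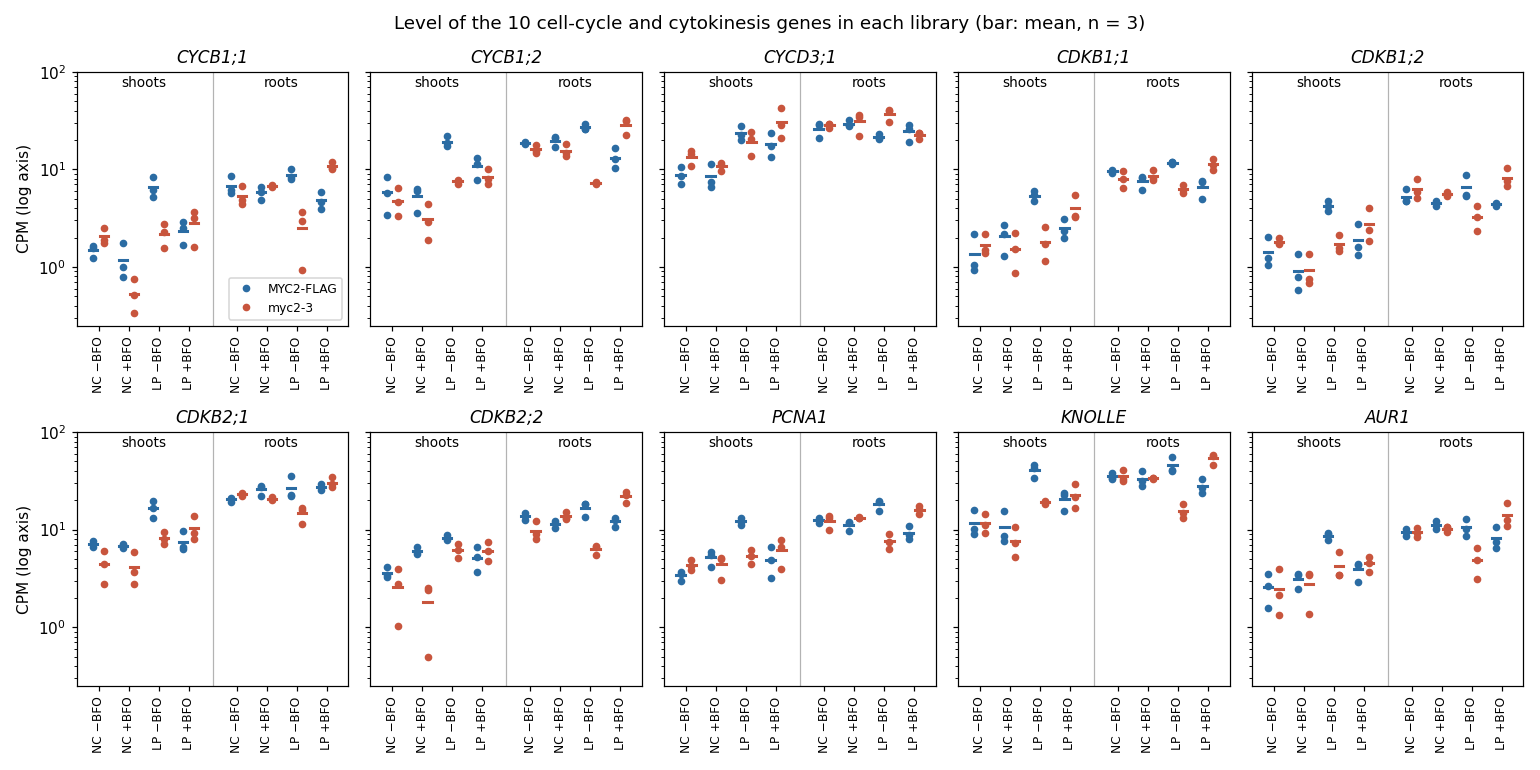
Level of each gene in CPM (log axis) in the 48 libraries, by tissue, light and BFO, with MYC2-FLAG in blue and myc2-3 in red. Points are libraries and bars are means of 3. In shoots the blue points of LP -BFO stand above all other blue shoot points for every gene but CYCD3;1, and in roots the red points of LP -BFO are the lowest and those of LP +BFO the highest red points for CYCB1;1, CYCB1;2 and KNOLLE.

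In shoots of MYC2-FLAG without microbes, all 10 genes were higher under LP than under NC, by 2.26-fold (CDKB2;2) to 4.30-fold (CYCB1;1). Over all genes tested, 11% were called higher in this comparison. The median log2 fold change of the 10 was 1.70, beside -0.04 for all genes. CYCB1;1, the cyclin of G2 and mitosis that is widely used to mark dividing cells, was at 8.29, 6.11 and 5.16 CPM under LP and at 1.65, 1.56 and 1.23 CPM under NC (log2 fold change 2.11 ± 0.33, adjusted p = 1.89e-06). Every LP library was above every NC library, as for the other 9 genes. CYCB1;2, its close relative, was at 21.8, 17.2 and 18.7 CPM under LP and 8.35, 5.71 and 3.39 CPM under NC (log2 fold change 1.69 ± 0.23). CYCD3;1, the cyclin that promotes entry into the cycle and holds leaf cells in division, was at 27.8, 19.8 and 22.6 CPM under LP and 10.5, 8.49 and 7.10 CPM under NC (log2 fold change 1.41 ± 0.24).

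The kinases rose with the cyclins. CDKB1;1 was at 5.41, 5.99 and 4.77 CPM under LP and 2.15, 1.04 and 0.926 CPM under NC (log2 fold change 1.91 ± 0.30), and CDKB1;2, CDKB2;1 and CDKB2;2 changed by 1.53, 1.21 and 1.18 on the log2 scale. PCNA1, the S-phase clamp, was at 12.1, 13.1 and 11.2 CPM under LP and 3.54, 2.94 and 3.70 CPM under NC, with the lowest adjusted p of the 10 (log2 fold change 1.83 ± 0.22, adjusted p = 1.15e-08). KNOLLE was at 46.0, 33.6 and 43.0 CPM under LP and 15.9, 9.01 and 10.2 CPM under NC (log2 fold change 1.77 ± 0.23), and the Aurora kinase AUR1 rose by 1.71 ± 0.31. Genes of S phase, mitosis and cytokinesis were thus all higher, and each of the 10 calls held when any 1 library was left out.

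Markers of meristems and organ primordia moved in the same shoots, although they did not move with the 10 genes in every comparison below. Of 12 such genes tested, 6 were called higher in this comparison, and their summed level was between 158.5 and 182.3 CPM under LP and between 67.6 and 85.4 CPM under NC. KNAT1, a homeobox gene of the shoot meristem and stem, changed by 3.63 on the log2 scale, from a mean of 0.29 CPM under NC. The root stem cell genes PLT1, PLT2 and WOX5 were at 0 counts under NC, and PLT2 under LP. Of the 4 root markers, PYK10 was called higher (median of the 4 1.24, all genes -0.04), and their sum was between 574.5 and 712.5 CPM under LP and between 192.8 and 258.4 CPM under NC, with EXPA7 at 0 in both and CASP1 at 0 under NC. Of the 4 shoot markers LHCB1.1 was called higher, and their sum was between 35220 and 40780 CPM under LP and between 24200 and 32000 CPM under NC. The part of these tissues in the rise of the 10 genes was not tested.

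In shoots of MYC2-FLAG with BFO, LP raised 3 of the 10 genes (10.5% of all genes were called higher). CYCB1;2 was at 13.0, 11.3 and 7.81 CPM under LP and 5.98, 3.58 and 6.26 CPM under NC (log2 fold change 1.01 ± 0.25), and these groups did not overlap. CYCD3;1 (1.09 ± 0.25) and CDKB1;2 (1.01 ± 0.40, with overlapping groups) were the other calls, whereas PCNA1 and CDKB2;2 had log2 fold changes of -0.10 and -0.25. CDKB1;2 lost its call under limma-voom (adjusted p = 0.0634) and edgeR's newer fit (0.0608), while DESeq2 called 5 genes. The count of 3 fell to 1 without LP +BFO replicate 1 and to 0 without NC +BFO replicate 2, and rose to 5 without NC +BFO replicate 1. The summed level of the meristem and primordium markers went the other way, between 97.9 and 122.2 CPM under LP and between 132.2 and 151.5 CPM under NC. Single markers did not all follow the sum, as GIF1 was called higher (1.17 ± 0.41), while KNAT1 was not called. The median log2 fold change of the 10 genes was 0.64.

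In shoots of myc2-3 most calls for light came with BFO. Without BFO, LP raised 1 gene, CDKB2;2 (3.79% of all genes were called higher), from 1.04, 2.75 and 3.90 CPM to 7.16, 5.15 and 6.21 CPM (log2 fold change 1.27 ± 0.30). This call was lost without NC -BFO replicate 1, and 3 genes were called without NC -BFO replicate 3. With BFO, 8 of 10 genes rose under LP (4.58% of all genes), with a median of 1.50 on the log2 scale. CYCB1;1 was at 3.18, 1.61 and 3.62 CPM under LP and 0.340, 0.744 and 0.516 CPM under NC, the latter from 8 reads in all (log2 fold change 2.48 ± 0.49). KNOLLE was at 16.7, 21.6 and 29.2 CPM under LP and 10.5, 5.21 and 7.22 CPM under NC (log2 fold change 1.53 ± 0.26, adjusted p = 2.71e-05). CYCD3;1 was at 21.1, 42.5 and 28.8 CPM under LP and 11.7, 11.2 and 9.63 CPM under NC (log2 fold change 1.49 ± 0.24). The groups of the 8 called genes did not overlap. PCNA1 and AUR1 were not called, with log2 fold changes of 0.50 ± 0.24 and 0.76 ± 0.36. The 12 meristem and primordium markers summed to between 163.2 and 223.6 CPM under LP and between 91.7 and 112.1 CPM under NC in these shoots, and 4 of 12 were called higher. PLT1 was at 0 counts in both. The root markers summed to between 363.3 and 577.5 CPM under LP and between 133.9 and 182.4 CPM under NC, with PYK10 called higher (median of the 4 1.15) and EXPA7 at 0 in both. The shoot markers summed to between 27760 and 36330 CPM under LP and between 40820 and 45020 CPM under NC, with RCA called lower (median of the 4 -0.63), and the part of these tissues was not tested. Without LP +BFO replicate 3 the call of CDKB1;2 was lost.

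In roots, calls for light were made in 1 of the 4 comparisons. In MYC2-FLAG roots 0 were called without BFO (4.19% of all genes were called in either direction) and 0 with BFO (0.882%). At an unadjusted p under 0.05 edgeR gave 3 and 1, and limma-voom and DESeq2 called 0 in each. In myc2-3 roots with BFO 0 were called by all 3 tools (3.8% of all genes), although 7 had an unadjusted p under 0.05 by edgeR. Of these, 4 also had an adjusted p under 0.05 but were under the fold threshold, namely CYCB1;2 (0.89 ± 0.19, adjusted p = 0.00183), CDKB2;1, CDKB2;2 and KNOLLE. There, 1 gene was called without NC +BFO replicate 2 or without LP +BFO replicate 1. In myc2-3 roots without BFO 3 genes fell under LP (1.87% of all genes were called lower). CYCB1;1 was at 0.931, 2.98 and 3.69 CPM under LP and 6.76, 4.90 and 4.44 CPM under NC (log2 fold change -1.02 ± 0.28). CYCB1;2 was at 7.22, 7.48 and 7.15 CPM and 14.7, 17.9 and 15.5 CPM (-1.14 ± 0.21), and KNOLLE at 13.2, 15.0 and 18.4 CPM and 32.9, 41.1 and 31.5 CPM (-1.18 ± 0.21, adjusted p = 0.000101). These groups did not overlap. The other 7 had log2 fold changes between -0.94 (CDKB1;2) and 0.39 (CYCD3;1). Without LP -BFO replicate 2 the count was 5, and the call of CYCB1;1 was lost without NC -BFO replicate 1 (-0.83) or LP -BFO replicate 1 (-0.68) and under edgeR's newer fit (-0.99). The shoot markers summed to between 54.7 and 171.6 CPM under LP and between 42.2 and 68.1 CPM under NC in these roots, with 2 of 4 called higher (LHCB1.1 and GAPA). The root markers summed to between 5710 and 6345 CPM under LP and between 2147 and 2666 CPM under NC, with PYK10 called higher. None of the 8 was at 0, and their part was not tested.

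**Figure D2:**
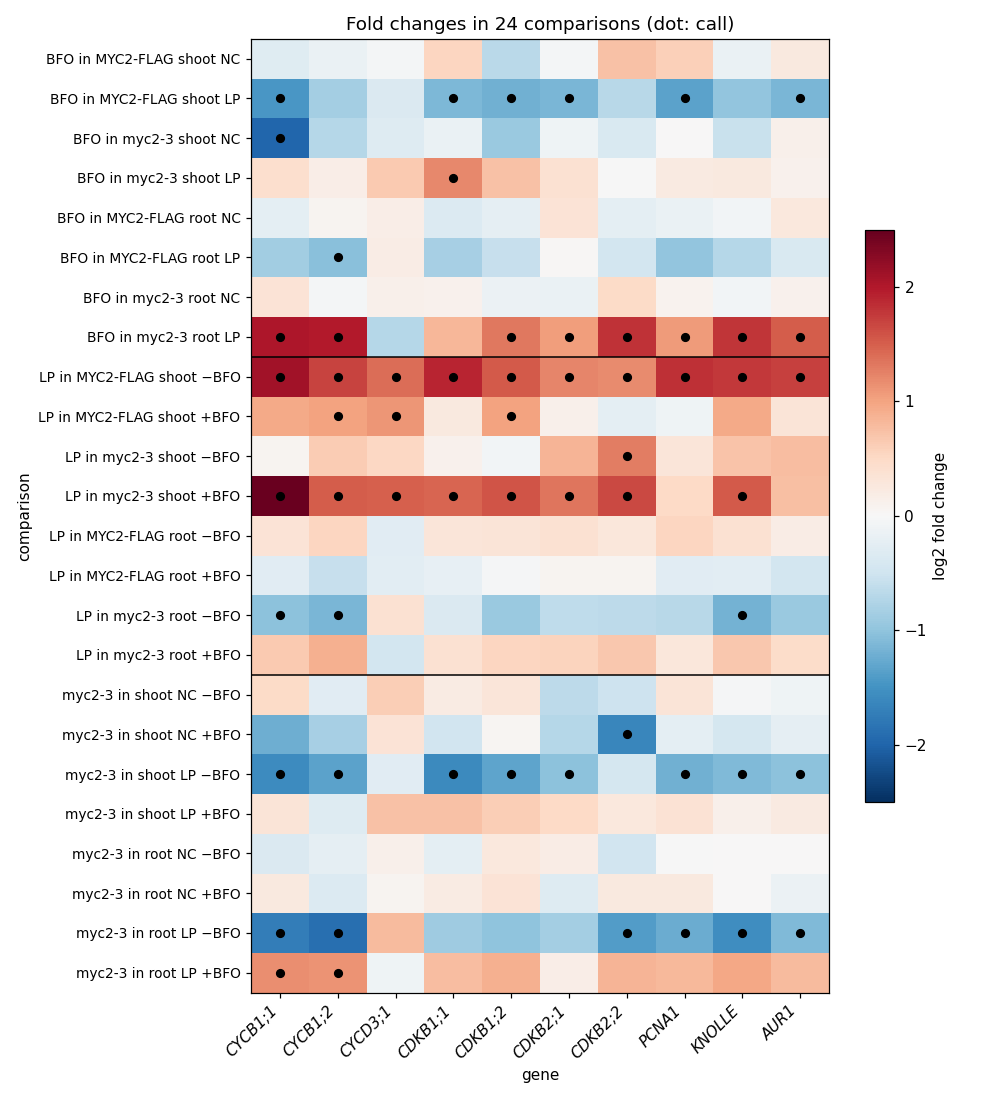
Log2 fold changes of the 10 genes (columns) in the 24 comparisons of BFO, light and genotype (rows, split by black lines), red for higher and blue for lower in the first-named condition, with a dot on each call. All 10 columns carry a dot for LP in MYC2-FLAG shoots -BFO, and CYCD3;1 has the opposite colour to its neighbours in myc2-3 roots under LP.

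Under NC, 1 call for BFO was made among the 10 genes. In MYC2-FLAG shoots 0 of 10 were called (6.11% of all genes, either direction), by edgeR, limma-voom and DESeq2, and 2 had an unadjusted p under 0.05. The meristem and primordium markers there summed to between 132.2 and 151.5 CPM with BFO and between 67.6 and 85.4 CPM without. Single markers did not all follow this sum, as GIF1 was called lower with BFO (-1.26 ± 0.39), while KNAT1 was not called. In myc2-3 shoots under NC 1 gene, CYCB1;1, was lower with BFO (5.69% of all genes were called lower), at 0.340, 0.744 and 0.516 CPM with BFO and 2.52, 1.77 and 1.87 CPM without (log2 fold change -1.99 ± 0.52, adjusted p = 0.0022), and 2 genes were called without NC +BFO replicate 1 or without NC +BFO replicate 2. In roots under NC 0 were called in MYC2-FLAG (12% of all genes) and 0 in myc2-3 (8.92%), again by all 3 tools, with 0 and 1 at an unadjusted p under 0.05.

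In shoots of MYC2-FLAG under LP, 6 of the 10 genes fell with BFO (4.24% of all genes were called lower), all 10 had log2 fold changes below 0, and the median was -1.13 against 0.00 for all genes. PCNA1 was at 6.62, 4.83 and 3.16 CPM with BFO and 12.1, 13.1 and 11.2 CPM without (log2 fold change -1.33 ± 0.22, adjusted p = 7.73e-06). CYCB1;1 was at 2.92, 2.51 and 1.66 CPM with BFO and at the 8.29, 6.11 and 5.16 CPM given above without (log2 fold change -1.46 ± 0.32). CDKB1;1, CDKB1;2, CDKB2;1 and AUR1 fell by 1.13, 1.20, 1.14 and 1.14 on the log2 scale, with standard errors from 0.22 to 0.31. Each of these 4 calls was lost without a certain library, those of CDKB1;1 and CDKB1;2 without LP +BFO replicate 3, that of CDKB2;1 without LP -BFO replicate 3 and that of AUR1 without LP +BFO replicate 1, with log2 fold changes of -0.99, -0.99, -0.98 and -0.98. Of the 4 not called, KNOLLE (-0.98 ± 0.22) and CYCB1;2 (-0.85 ± 0.22) had adjusted p-values of 0.000644 and 0.00294 but were under the fold threshold, and CYCD3;1 overlapped between the groups (-0.35 ± 0.23). For the other 9 genes the groups did not overlap. The meristem and primordium markers summed to between 97.9 and 122.2 CPM with BFO and between 158.5 and 182.3 CPM without, with 3 of 12 called lower, and their part was not tested.

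In shoots of myc2-3 under LP, 1 gene, CDKB1;1, was higher with BFO (4.91% of all genes were called higher), at 3.33, 3.22 and 5.43 CPM with BFO and 1.14, 1.72 and 2.56 CPM without (log2 fold change 1.19 ± 0.31). This call was lost without LP -BFO replicate 1 and without LP +BFO replicate 3. The other 9 had log2 fold changes between -0.00 (CDKB2;2) and 0.73 (CDKB1;2). The meristem and primordium markers summed to between 163.2 and 223.6 CPM with BFO and between 128.8 and 150.4 CPM without. KNAT1 (1.11 ± 0.41) and GIF1 (1.04 ± 0.30, with overlapping groups) were called higher, and the part of these markers was not tested.

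In MYC2-FLAG roots under LP 1 gene, CYCB1;2, fell with BFO (7.87% of all genes were called lower), at 16.6, 12.8 and 10.2 CPM with BFO and 25.8, 29.4 and 26.1 CPM without (log2 fold change -1.04 ± 0.20, adjusted p = 4.23e-05). PCNA1 was just under the fold threshold (-0.99 ± 0.18, adjusted p = 2.33e-05), and CYCB1;1, CDKB1;1 and KNOLLE were between -0.86 and -0.71. The count was 0 without LP -BFO replicate 2 or LP +BFO replicate 3, and 2 without LP -BFO replicate 3, LP +BFO replicate 1 or LP +BFO replicate 2.

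In myc2-3 roots under LP, 8 of 10 genes were higher with BFO (6.86% of all genes were called higher), with a median of 1.42 on the log2 scale against -0.06 for all genes. KNOLLE was at 46.5, 58.2 and 57.6 CPM with BFO and 13.2, 15.0 and 18.4 CPM without, 3.47-fold apart (log2 fold change 1.79 ± 0.21, adjusted p = 7.17e-09). CYCB1;1 was at 9.98, 11.8 and 10.3 CPM with BFO and 0.931, 2.98 and 3.69 CPM without (2.02 ± 0.27). CYCB1;2 was at 22.5, 32.3 and 31.2 CPM with BFO and 7.22, 7.48 and 7.15 CPM without (1.98 ± 0.21, adjusted p = 5.33e-10). All groups of these 3 genes were apart, and the +BFO libraries were the high ones. CDKB2;2 was at 18.9, 22.7 and 24.2 CPM with BFO and 5.47, 6.72 and 6.60 CPM without (1.80 ± 0.21), and CDKB1;2, CDKB2;1, PCNA1 and AUR1 rose by 1.32, 1.04, 1.07 and 1.51. CDKB1;1 was under the fold threshold (0.84 ± 0.21). CYCD3;1 went the other way, with 23.8, 23.5 and 20.6 CPM with BFO and 39.5, 30.7 and 41.1 CPM without (log2 fold change -0.71 ± 0.21, adjusted p = 0.00486), and its groups did not overlap either. The meristem and primordium markers summed to between 296.5 and 300.3 CPM with BFO and between 242.2 and 289.2 CPM without, with 2 of 12 called higher and 3 lower, and STM was at 0 counts with BFO. The root markers summed to between 1698 and 2243 CPM with BFO and between 5710 and 6345 CPM without, with PYK10 called lower, and the part of these tissues was not tested. The call of CDKB2;1 was lost without LP +BFO replicate 3 or LP -BFO replicate 1, and that of PCNA1 without LP -BFO replicate 1.

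**Figure D3:**
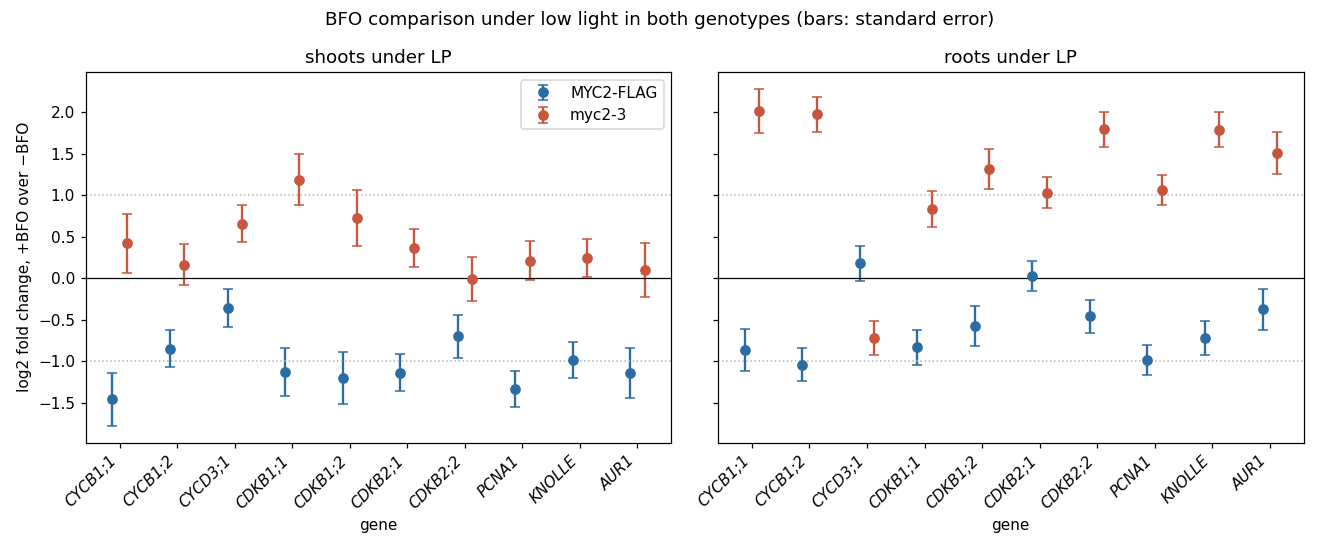
Log2 fold change of +BFO over -BFO under LP for each gene in shoots and roots, with MYC2-FLAG in blue and myc2-3 in red and bars of 1 standard error. Dotted lines mark a log2 fold change of 1 in either direction. In shoots all 10 blue points are below 0, and in roots 9 of 10 red points are above 0 with CYCD3;1 at -0.71.

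The difference of the BFO effect between the genotypes was tested as an interaction. Under LP it was called higher in myc2-3 for 9 of 10 genes in shoots (7.43% of all genes) and 9 of 10 in roots (16%). In shoots the count was 7 by DESeq2, with its size factors, without a filter on low counts and in separate fits per tissue, and 8 by limma-voom. CYCD3;1, CYCB1;2 and AUR1 there lost their calls on leaving out 5, 4 and 6 of 12 libraries in turn, and KNOLLE without myc2-3 LP +BFO replicate 3. In roots the count was 8 by limma-voom, without the filter and in separate fits, where CDKB2;1 (1.01) came to 1.00 or less, and CDKB2;1 lost its call on leaving out 4 of 12 libraries. In shoots it was largest for CDKB1;1, at 2.32 ± 0.42, and CDKB2;2 was not called (0.69 ± 0.36). In roots it was largest for CYCB1;2, at 3.02 ± 0.29 (adjusted p = 1.56e-11), and CYCD3;1 was not called and had the opposite sign (-0.89 ± 0.29). Under NC it was called for 0 of 10 in shoots (11.2% of all genes) and 0 of 10 in roots (24.7%) by edgeR, with 2 and 1 genes at an unadjusted p under 0.05, and DESeq2 called 1 and 0 and limma-voom 0 and 0. These tests rest on the labels of both genotypes, which did not line up over all genes.

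The interaction of light with BFO within a genotype compares no genotypes but also rests on that genotype's labels of light and BFO. It was called lower for 5 genes in MYC2-FLAG shoots (7.75% of all genes), namely CDKB1;1, CDKB2;1, CDKB2;2, PCNA1 and AUR1, the largest being PCNA1 at -1.93 ± 0.33. There the call of CDKB2;1 was lost without LP +BFO replicate 2, LP +BFO replicate 3 or LP -BFO replicate 3, and that of AUR1 without NC -BFO replicate 2. In myc2-3 shoots it was called higher for 2 (2.79%), CYCB1;1 at 2.42 ± 0.63 and CDKB1;2 at 1.65 ± 0.54. That count was 1 without NC -BFO replicate 2, NC +BFO replicate 3, LP -BFO replicate 2 or LP +BFO replicate 3, and 4 without LP +BFO replicate 1. CDKB1;2 itself lost its call on leaving out 7 of 12 libraries in turn. It was also not called by limma-voom (adjusted p = 0.0694) or in separate fits per tissue (edgeR adjusted p = 0.0587). In MYC2-FLAG roots 1 gene, CYCB1;2, was called lower (2.53%), at -1.11 ± 0.28, and 0 without LP +BFO replicate 3. In myc2-3 roots 7 were called higher (4.22%), from 1.20 (CDKB2;1) to 2.03 (CYCB1;2), and CYCD3;1 was again on the other side of 0, at -0.84 ± 0.29.

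The interaction of light with genotype was called lower in myc2-3 for 6 genes in shoots without BFO (8.37% of all genes) and for 7 in roots without BFO (3.75%), and higher for 3 in shoots with BFO (12.2%) and 1 in roots with BFO (1.89%). The 3 were CDKB1;1, CDKB2;1 and CDKB2;2, and limma-voom, DESeq2, its size factors and separate fits per tissue each gave 2, without CDKB1;1 (adjusted p from 0.0611 to 0.0911), which was also lost on leaving out 7 of 12 libraries. CYCB1;1 gave -2.04 ± 0.51 in shoots without BFO, CYCB1;2 gave -1.67 ± 0.28 in roots without BFO, and CDKB2;2 gave 1.90 ± 0.42 in shoots with BFO. The count of 3 was 1 without myc2-3 NC +BFO replicate 3 or LP +BFO replicate 3, and the count of 7 was 4 without MYC2-FLAG LP -BFO replicate 2. In shoots without BFO, CYCB1;2 and KNOLLE lost their calls on leaving out 3 and 4 of 12 libraries. The 1 gene in roots with BFO was CYCB1;2 (1.47 ± 0.28), and 3 genes were called without LP +BFO replicate 1 of either genotype and 2 without MYC2-FLAG NC +BFO replicate 3.

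Compared condition by condition, myc2-3 differed from MYC2-FLAG in these genes mainly under LP without BFO. In shoots of that condition 8 of 10 genes were lower in myc2-3 (1.98% of all genes were called lower), with a median of -1.14 on the log2 scale. CYCB1;2 was at 7.82, 7.16 and 7.67 CPM in myc2-3 and 21.8, 17.2 and 18.7 CPM in MYC2-FLAG (log2 fold change -1.34 ± 0.23, adjusted p = 4.9e-05). PCNA1 was at 5.37, 4.44 and 6.21 CPM in myc2-3 and 12.1, 13.1 and 11.2 CPM in MYC2-FLAG (-1.19 ± 0.21). CDKB2;2 and CYCD3;1 were the genes not called, at -0.43 ± 0.24 and -0.27 ± 0.22. AUR1 and CDKB2;1 lost their calls on leaving out 4 and 2 of the 6 libraries in turn. The labels of this shoot condition were among those that matched over all genes (r = 0.70). In roots under LP without BFO 6 genes were lower in myc2-3 (8.46% of all genes), among them CYCB1;2 (-1.89 ± 0.21) and KNOLLE (-1.55 ± 0.21), while CYCD3;1 was at 0.78 ± 0.20 with groups that did not overlap. AUR1 lost its call there without MYC2-FLAG LP -BFO replicate 2 or myc2-3 LP -BFO replicate 1. The labels of this root condition did not match over all genes (r = -0.50), and its r with MYC2-FLAG roots under LP +BFO was 0.58.

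With BFO under LP, 0 were called in shoots (19.4% of all genes, either direction), with 3 at an unadjusted p under 0.05 and 0 by limma-voom and DESeq2, and in roots 2 were higher in myc2-3 (5.91%), CYCB1;1 (1.16 ± 0.26) and CYCB1;2 (1.12 ± 0.20). That root count was 4 without LP +BFO replicate 1 of either genotype and 1 without MYC2-FLAG LP +BFO replicate 3. Under NC, CDKB2;2 was lower in myc2-3 shoots with BFO (1.41% of all genes were called lower), at 2.55, 0.496 and 2.41 CPM against 6.66, 5.88 and 5.63 CPM in MYC2-FLAG (-1.64 ± 0.32), and 2 genes were called without MYC2-FLAG NC +BFO replicate 2 or without myc2-3 NC +BFO replicate 1 or 2. In the other 3 NC comparisons 0 were called by edgeR, limma-voom and DESeq2, with backgrounds of 16.5% in shoots without BFO, 11.1% in roots without BFO and 11.7% in roots with BFO, and with 2, 1 and 0 genes at an unadjusted p under 0.05. Without myc2-3 NC -BFO replicate 3, 1 gene was called in shoots without BFO.

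Averaged over all 4 conditions of a tissue, 0 of 10 genes were called in shoots (1.96% of all genes) or in roots (1.33%), and averaged over BFO alone 0 were called in roots under NC (0.962%) or in roots under LP (1.78%), each by edgeR, limma-voom or DESeq2. The counts at an unadjusted p under 0.05 were 6, 3, 1 and 3. CYCB1;2 gave the largest of these mean differences in shoots, -0.70 ± 0.13 (adjusted p = 8.93e-05), and CYCD3;1 had the opposite sign there (0.36 ± 0.12). In roots under LP the mean differences ran from -0.38 (CYCB1;2) to 0.34 (CYCD3;1), where the comparison without BFO alone had reached -1.89.

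CYCD3;1 shared the pattern of the other genes in shoots and not in roots. Across the 8 shoot condition means, centred within tissue and genotype, it correlated with the mean of the other 9 at r = 0.93. Across the 8 root condition means r was -0.86, while each of the other 9 correlated with the rest at r from 0.76 (CDKB2;1) to 0.99 (KNOLLE and CYCB1;1) in roots. These points share libraries and are given as a description. In roots, CYCD3;1 and the mean of the other 9 were furthest apart in myc2-3 under LP. Their centred log2 CPM was 0.34 and -0.82 without BFO, and -0.36 and 0.67 with BFO. In MYC2-FLAG roots under LP they were at -0.22 and 0.35 without BFO, and on the same side of 0 with BFO (-0.05 and -0.28). CYCD3;1 had its highest root mean in myc2-3 LP -BFO (37.1 ± 5.59 CPM, SD, n = 3), where KNOLLE had its lowest root mean (15.5 ± 2.65 CPM). Between pairs of genes over all 16 conditions, CYCB1;2 and KNOLLE were the closest (r = 0.99), and CYCD3;1 and PCNA1 the least alike (r = 0.38).

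**Figure D4:**
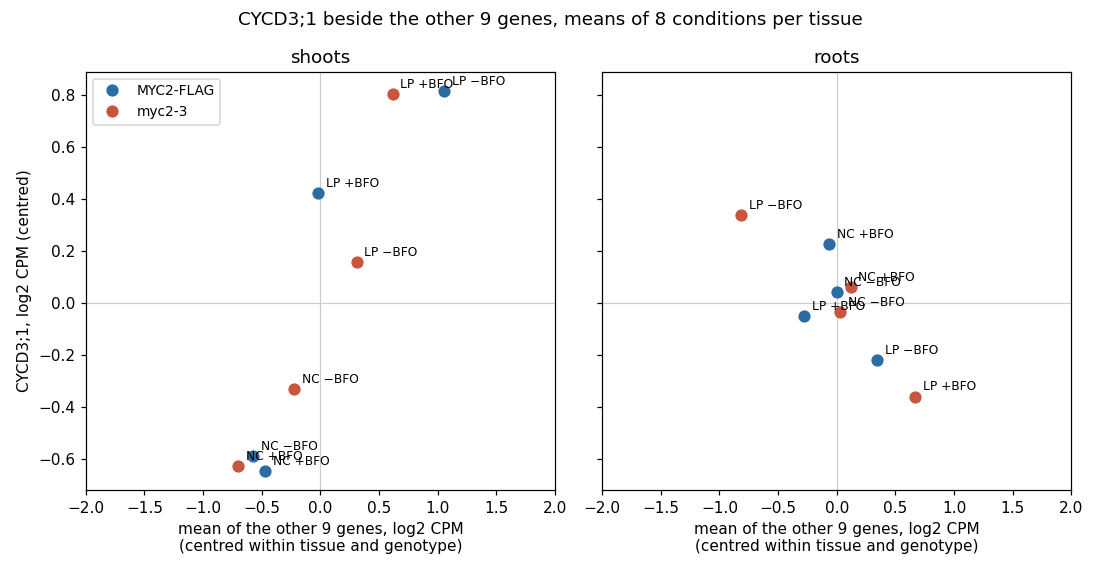
CYCD3;1 (y axis) against the mean of the other 9 genes (x axis), both as centred log2 CPM, for the 8 conditions of each tissue, with MYC2-FLAG in blue and myc2-3 in red. The shoot points rise together (r = 0.93), and the root points fall (r = -0.86), with myc2-3 LP -BFO at the upper left.

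The other genes of the cycle were read from 7 lists, 104 genes tested, which leave out the 10 above. In MYC2-FLAG shoots without BFO, LP raised 58 of 104 and lowered 1, beside 11% and 7.98% of all genes, with a median of 1.13 on the log2 scale. The gene that fell was SNAP33, a partner of KNOLLE (-1.11). Called higher were 13 of 15 genes of DNA replication, 14 of 20 of cytokinesis, 11 of 16 A- and B-type cyclins, 11 of 17 of mitosis and anaphase, 3 of 8 D-type cyclins, 3 of 15 CDK inhibitors and 3 of 13 E2F, RBR1 and MYB3R regulators, and differences between these lists were not tested. CYCA3;1, an A-type cyclin, rose by 2.77 ± 0.42, TSO2, the small subunit of ribonucleotide reductase, by 2.06 ± 0.18, CDC20.2, an activator of the anaphase-promoting complex, by 2.13 ± 0.30, and PAKRP1, a kinesin of the phragmoplast, by 1.48 ± 0.28.

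In myc2-3 shoots with BFO, LP raised 31 of 104 beside 4.58% of all genes, with 10 of 16 A- and B-type cyclins, 10 of 17 genes of mitosis and anaphase and 2 of 15 of DNA replication. CDC20.2 rose by 2.63 ± 0.35 and the Aurora kinase AUR3 by 1.97 ± 0.51. The difference in the share of DNA replication genes between these comparisons was not tested.

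BFO under LP lowered 16 and raised 3 of 104 in MYC2-FLAG shoots, beside 4.24% of all genes lowered and 5.54% raised. In myc2-3 roots it raised 38 and lowered 2, beside 6.86% raised and 9.58% lowered. The 3 that rose in MYC2-FLAG shoots were all CDK inhibitors, proteins that hold CDKs back. Among them, SMR1 rose by 1.29 ± 0.21 from a mean of 18.8 CPM and SMR5 by 1.83 ± 0.66 from 0.205 CPM, the latter on few reads, and KRP6 was the other (2.15-fold). The falls included CDC20.2 (-1.26), CYCA3;1 (-1.22), CYCA2;4 (-1.14) and the S-phase regulator E2FA (-1.22). In myc2-3 roots 10 of 16 A- and B-type cyclins, 10 of 17 genes of mitosis and anaphase and 11 of 20 of cytokinesis rose, with CYCA2;4 at 2.44 ± 0.23, AUR3 at 2.03, CSLD5, a cellulose synthase-like protein of the cell plate, at 1.54, CDC45 at 1.48 and the atypical E2F factor DEL3 at 1.43.

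D-type cyclins moved in both directions in these roots, where 3 of 8 rose with BFO and 1 fell. CYCD4;1 (2.15) and CYCD3;2 (1.24) were among those that rose, and the CDK inhibitor KRP1 (-1.65) was the other division gene that fell. SNAP33, KRP6, CYCD4;1, CYCD3;2 and KRP1 were named after their values were seen. CYCD6;1, which acts in formative divisions of the root, rose by 1.58 ± 0.30 from a mean of 2.01 CPM, and CYCD1;1 fell by 1.60 ± 0.18 from 45.9 CPM. In MYC2-FLAG roots under LP both had the opposite sign, with CYCD6;1 at -1.56 and CYCD1;1 at 2.34. Under NC in roots, where 0 of the 10 genes were called, CYCD1;1 changed by 1.35 in MYC2-FLAG and -1.11 in myc2-3, and CYCD6;1 by -1.32 and 1.96. These opposite signs rest on the BFO labels and are not particular to these cyclins. Over all genes, root conditions with the opposite BFO label in the same light correlated between the genotypes at r from 0.58 to 0.77.

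**Figure D5:**
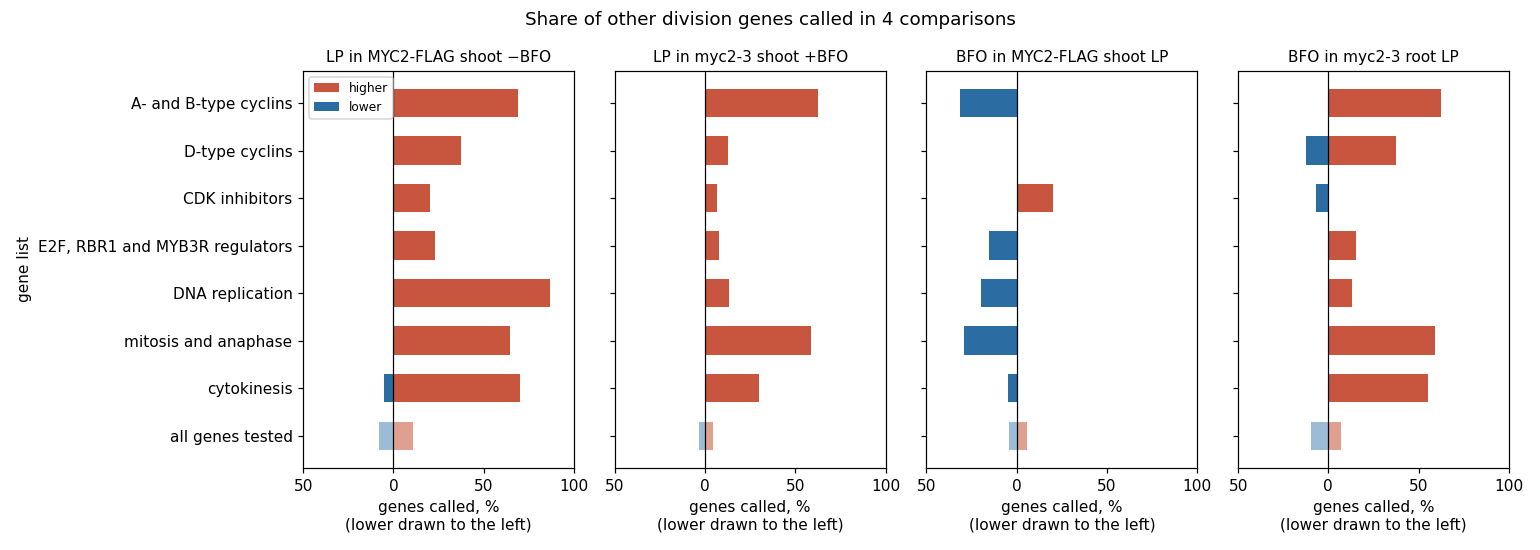
Percent of the tested genes of 7 division lists called higher (red, to the right) or lower (blue, to the left) in 4 comparisons, with all 21098 genes tested in pale colours at the bottom. LP in MYC2-FLAG shoots without BFO has the longest bar, 13 of 15 DNA replication genes, and the CDK inhibitors are the list with bars to the right when BFO was added to MYC2-FLAG shoots under LP.

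The genes most like the 10 across the 16 condition means were CDC20.1 (Pearson r = 0.99), which activates the anaphase-promoting complex, AT2G07170, an ARM repeat protein (0.98), CYCA1;1 (0.98), the kinase ANP3 (0.98), AT5G15510, of the TPX2 family (0.98), CCS52B (0.98), AT4G38070, annotated as bHLH131-like (0.97), the kinesin AT3G20150 (0.97), IQD8 (0.97) and the kinesin-like AT4G26660 (0.97). They were ranked among 17876 other genes with a mean of at least 20 counts, on centred log2 CPM against the mean profile of the 10. Of 93 other division genes in that ranking, 61 had r of at least 0.5, beside 2298 of all 17876. By Spearman correlation 6 of these 10 genes were again in the first 10.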

How the data were processed

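RNA was sequenced from shoots and roots of both genotypes, 48 libraries in 16 conditions of 3. Per the labels and the study's methods, the authors checked reads with FastQC, aligned them to TAIR10 with TopHat2 and counted reads on exons by reverse strand with htseq-count. The deposited values are these counts per gene, without normalisation, and the summary lines of the counter (1.23% to 4.08% without a feature, 0.451% to 0.9% ambiguous) were left out of library sizes and tests. Counts of 5162823 to 11045467 per library limit the precision of the low genes.

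The 21098 genes whose counts summed to over 100 were fitted in edgeR 4.0.16 (R 4.3.3) with TMM factors, 1 mean per condition over all 48 libraries and the quasi-likelihood test, with Benjamini-Hochberg adjustment over all genes tested. A call needs a log2 fold change of 1 or more in size, with an adjusted p under 0.05. Levels are CPM on TMM library sizes. The script was tested on simulated data.

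The members and lists were chosen with earlier results of these data known. Named genes are the 10 members, MYC2, the 2 genes of each list called in the most of the 24 comparisons of BFO, light and genotype, and the 10 genes most like the members. Alternatives were DESeq2 1.42.0, its size factors in edgeR, limma-voom (limma 3.58.1), other filters on low counts, no minimum fold, separate fits per tissue, a replicate block, each library left out, and, added after seeing the data, a newer edgeR fit, genotype means over conditions and the G-box.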

Additional observations from a re-analysis of the deposited data

Results flagged for a closer look

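A difference in the effect of 1 factor between the groups of another was found for these genes, by an interaction term fitted in edgeR, with Benjamini-Hochberg adjusted p under 0.05 and a log2 difference of 1 or more in size. Values are log2 differences of effects. All rest on the labels of light and BFO, which did not line up between the genotypes over all genes. For those between genotypes, genotype and sequencing project cannot be told apart.

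The effect of BFO under LP minus that under NC in MYC2-FLAG shoot was -1.67 for CDKB1;1, -1.08 for CDKB2;1, -1.43 for CDKB2;2, -1.93 for PCNA1 and -1.39 for AUR1. The effect of BFO under LP minus that under NC in myc2-3 shoot was 2.42 for CYCB1;1 and 1.65 for CDKB1;2. The effect of BFO under LP minus that under NC in MYC2-FLAG root was -1.11 for CYCB1;2. The effect of BFO under LP minus that under NC in myc2-3 root was 1.67 for CYCB1;1, 2.03 for CYCB1;2, 1.47 for CDKB1;2, 1.20 for CDKB2;1, 1.33 for CDKB2;2, 1.86 for KNOLLE and 1.40 for AUR1.

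The effect of BFO in myc2-3 minus that in MYC2-FLAG in shoot LP was 1.88 for CYCB1;1, 1.01 for CYCB1;2, 1.02 for CYCD3;1, 2.32 for CDKB1;1, 1.93 for CDKB1;2, 1.51 for CDKB2;1, 1.55 for PCNA1, 1.23 for KNOLLE and 1.24 for AUR1. The effect of BFO in myc2-3 minus that in MYC2-FLAG in root LP was 2.88 for CYCB1;1, 3.02 for CYCB1;2, 1.67 for CDKB1;1, 1.89 for CDKB1;2, 1.01 for CDKB2;1, 2.26 for CDKB2;2, 2.05 for PCNA1, 2.51 for KNOLLE and 1.88 for AUR1.

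The effect of LP in myc2-3 minus that in MYC2-FLAG in shoot -BFO was -2.04 for CYCB1;1, -1.06 for CYCB1;2, -1.80 for CDKB1;1, -1.61 for CDKB1;2, -1.52 for PCNA1 and -1.06 for KNOLLE. The effect of LP in myc2-3 minus that in MYC2-FLAG in shoot +BFO was 1.22 for CDKB1;1, 1.21 for CDKB2;1 and 1.90 for CDKB2;2. The effect of LP in myc2-3 minus that in MYC2-FLAG in root -BFO was -1.37 for CYCB1;1, -1.67 for CYCB1;2, -1.26 for CDKB1;2, -1.02 for CDKB2;1, -1.23 for PCNA1, -1.56 for KNOLLE and -1.11 for AUR1. The effect of LP in myc2-3 minus that in MYC2-FLAG in root +BFO was 1.47 for CYCB1;2.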

How the results depend on the processing

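Among the 10 genes, 962 of 991 values kept their direction and their side of the call threshold under the settings other than leaving out a library, 29 fell below the threshold and 0 reversed. With 1 library left out the numbers were 1275 of 1362, 87 and 0. Without a minimum fold change, calls lower rose to 17 for BFO, 8 for light and 1 for genotype by BFO, calls higher for genotype rose to 11, and the genotype means over conditions gave 1 higher and 5 lower. DESeq2 called 1 gene lower for genotype by BFO. Over single libraries left out, calls lower for light ranged from 2 to 5, calls higher for genotype from 1 to 4, calls lower for genotype by BFO from 0 to 1, and calls higher for genotype by light from 2 to 6. By Spearman correlation 6 of the 10 most alike genes were shared. Separate fits per tissue gave no value for shoots against roots.

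Same-numbered replicates did not pair, as 5 of 72 pairs had r over 0.1 and in 0 of 24 comparisons did all 3, and 17 pairs were best at their own number. With a replicate block, calls higher for genotype were 0 and calls lower for the genotype means over conditions were 1. In that fit, comparisons between genotypes or tissues use the fitted level of replicate 1 on each side. These counts therefore do not measure an effect of pairing. The low counts of CYCB1;1, CDKB1;1 and CDKB1;2 in shoots, and of CDKB2;2 and AUR1 in shoots of myc2-3 under NC +BFO, limit those fold changes.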
